A study of Mus musculus with 20 samples.

Results

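The 10 genes described here are Tnc, Itga9, Itga8, Itgav, Itgb6, Itga5, Itga3, Itga1, Itga2 and Itgb1, which encode the matrix protein tenascin C and subunits of the integrins, the receptors that tie cells to matrix. All array probes whose gene name in the scanner output equals 1 of these symbols were taken, each kept apart, which gave 27 probes of 10 genes among the 41174 probes and 27962 gene names of the array. Of these, 20 probes of 9 genes passed the brightness filter (a signal well above background on 10 or more of 20 arrays) and could be tested. The genes were chosen by measured values of these same arrays. Which values were used is not recorded, so every comparison was treated as used. The differences and counts for these genes are therefore given as a description and carry no p-value. A further 4 probes of the same genes stood under other names on the array, among them a second Itga9 probe, and are given separately.

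RNA of the whole trachea was profiled in C57/Bl6 mice that were either wild-type or lacked Myd88 (Myd88KO), without injury or 3 days after 2% polidocanol, a detergent that strips the airway epithelium, was given into the airway. Each genotype had 5 uninjured and 5 injured samples, which makes 4 groups, with 1 one-colour array per sample. Myd88, an adaptor of Toll-like and interleukin-1 receptors, was missing from every cell of the knockout animals, which had been backcrossed to a C57/Bl6 substrain and bred apart from the wild-type colony, so genotype and colony cannot be told apart. The labels give an age of 4 months for all groups, and both sexes were used without the sex of a sample being stated.

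Integrins are pairs of an alpha and a beta subunit that span the cell membrane. Itgb1, the commonest beta subunit, pairs with Itga1 and Itga2 to bind collagen, with Itga3 to bind laminin, with Itga5 to bind fibronectin, with Itga8 to bind nephronectin and tenascin C, and with Itga9 to bind tenascin C, osteopontin and Vcam1. Itgav pairs with Itgb6, a subunit made by epithelium, to bind fibronectin and tenascin C and to free latent transforming growth factor beta. Tenascin C is a large matrix glycoprotein that is scarce in most resting adult tissue and is known for its appearance at wound edges.

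The 3 members with a probe that passed the test after wild-type injury were Tnc, Itga5 and Itga8, and the bases before their RefSeq starts (build GRCm38.p6) are shown as context for genes that moved at the same time. Each line holds 250 bases of the gene's own strand, 5′ to 3′, up to the first base of the farthest upstream transcript, with motif matches in capitals. All 3 genes lie on the minus strand, Tnc at chr4:64047016-64047265, Itga5 at chr15:103366792-103367041 and Itga8 at chr2:12301945-12302194.
Tnc: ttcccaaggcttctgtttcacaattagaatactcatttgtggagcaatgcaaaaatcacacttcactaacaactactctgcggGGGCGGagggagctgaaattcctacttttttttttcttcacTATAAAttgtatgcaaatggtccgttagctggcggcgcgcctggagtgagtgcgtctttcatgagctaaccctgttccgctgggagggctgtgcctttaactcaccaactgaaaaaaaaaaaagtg
Itga5: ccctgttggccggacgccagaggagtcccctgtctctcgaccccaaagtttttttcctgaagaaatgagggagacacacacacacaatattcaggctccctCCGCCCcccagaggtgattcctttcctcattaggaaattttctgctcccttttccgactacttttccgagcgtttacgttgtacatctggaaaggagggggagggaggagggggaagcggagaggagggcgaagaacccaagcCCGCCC
Itga8: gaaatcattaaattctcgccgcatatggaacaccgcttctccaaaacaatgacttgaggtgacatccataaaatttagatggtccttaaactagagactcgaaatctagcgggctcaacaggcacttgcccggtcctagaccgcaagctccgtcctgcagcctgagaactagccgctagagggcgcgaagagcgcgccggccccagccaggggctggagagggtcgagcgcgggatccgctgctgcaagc
Both strands were searched for the TATA box TATAAA, the Sp1 motif GGGCGG, the AP-1 motif TGANTCA and the NF-κB motif, and no match overlapped another. The Tnc window held 1 TATA box and 1 Sp1 motif, the Itga5 window held 2 Sp1 motifs on the opposite strand and the Itga8 window held none of the 4. Among all 32851 windows of the same length, 12.4% held the TATA box, 32.7% the Sp1 motif, 6.75% the AP-1 motif and 7.25% the NF-κB motif. These are matches of letters and were not tested for binding.

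Levels are log2 signals minus the 75th percentile of the same array, so a difference of 1 is a doubling, and levels of different probes are not compared. Between 57.5% and 67.8% of spots per array were well above background. The lowest share, and the most outlier spots (192, against 69 to 113 on the other arrays), belonged to injured Myd88KO replicate 5. The Myd88KO injury differences of Tnc, Itga5 and Itga8, at 1 probe each, are also given without it. Other Myd88KO values keep it unless stated. Markers of epithelium, smooth muscle and cartilage all passed the same filter (9 of 9, 6 of 6 and 6 of 6 genes). So did every gene of the other marker lists, among them skeletal muscle (6 of 6) and adipocyte (5 of 5). The filter therefore does not check the tissue label. The Myd88 probe read 1.94 to 2.28 in uninjured wild-type and 1.60 to 2.04 in uninjured Myd88KO samples, and the groups overlapped. Whether it lies inside the deleted stretch is not given in the sources used here, so it does not check the labels. After injury it read 2.36 to 2.80 in wild-type and 1.54 to 2.09 in Myd88KO samples (difference -0.77, SE 0.14, limma adjusted p = 0.00824).

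Tenascin C, the ligand of the set, was higher after injury in wild-type tracheas and widely spread in injured Myd88KO tracheas. Its brightest probe (A_51_P291438, chromosome 4, positions 63394034 to 63394094 in the files, whose build is not stated) read -1.19, -1.19, -0.81, -0.75 and -1.26 in uninjured wild type, against 0.80, 0.93, 1.13, 0.26 and 0.88 in injured wild type. The wild-type groups did not overlap, and the difference was 1.84 (SE 0.43), 3.58-fold. It was called in the main fit but under only 15 of 31 alternative settings. Uninjured Myd88KO samples read -1.21, -0.47, -0.61, -0.80 and -1.12, a range that overlapped uninjured wild type. Injured Myd88KO replicates 1 to 5 read -1.08, 1.17, 0.12, 1.48 and -1.64, so replicates 2 and 4 exceeded every injured wild-type sample while replicates 1 and 5 lay among or under the uninjured ones. The mean difference in Myd88KO was 0.85 (SE 0.43), and 1.26 without replicate 5. Within the 5 slides, which each carried 1 array of every group, the wild-type difference ran from 1.01 to 2.14. Because each sample is a whole trachea, fewer or more cells of a type and less or more RNA per cell cannot be told apart.

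A second Tnc probe (A_52_P355169), at positions 63446910 to 63447673 in the files, read between -5.50 and -4.37 in uninjured wild type and between -3.74 and -1.93 in injured wild type, again without overlap. It was dim: 2 of 5 uninjured wild-type and 3 of 5 uninjured Myd88KO arrays were well above background, against 5 of 5 in injured wild type and 3 of 5 in injured Myd88KO. The difference of 2.28 (SE 0.53) fell to 0.97 under another background correction, and it was no longer called there or with the slide as a block, where the value stayed 2.28. In all, this probe was called under 13 of 30 alternative settings. Its injured Myd88KO values ran from -5.55 to -2.29, with replicates 2 and 4 again the highest. The third probe (A_51_P324992), well above background on 10 of 20 arrays, differed by 0.42 (SE 0.73) in wild type and 0.76 (SE 0.73) in Myd88KO. A Tnc probe listed only under a transcript number lies beside it and read -5.37 to -2.04 in injured wild type, with a difference of 0.85 (SE 0.66). These last 2 probes overlapped between all groups.

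**Figure D1:**
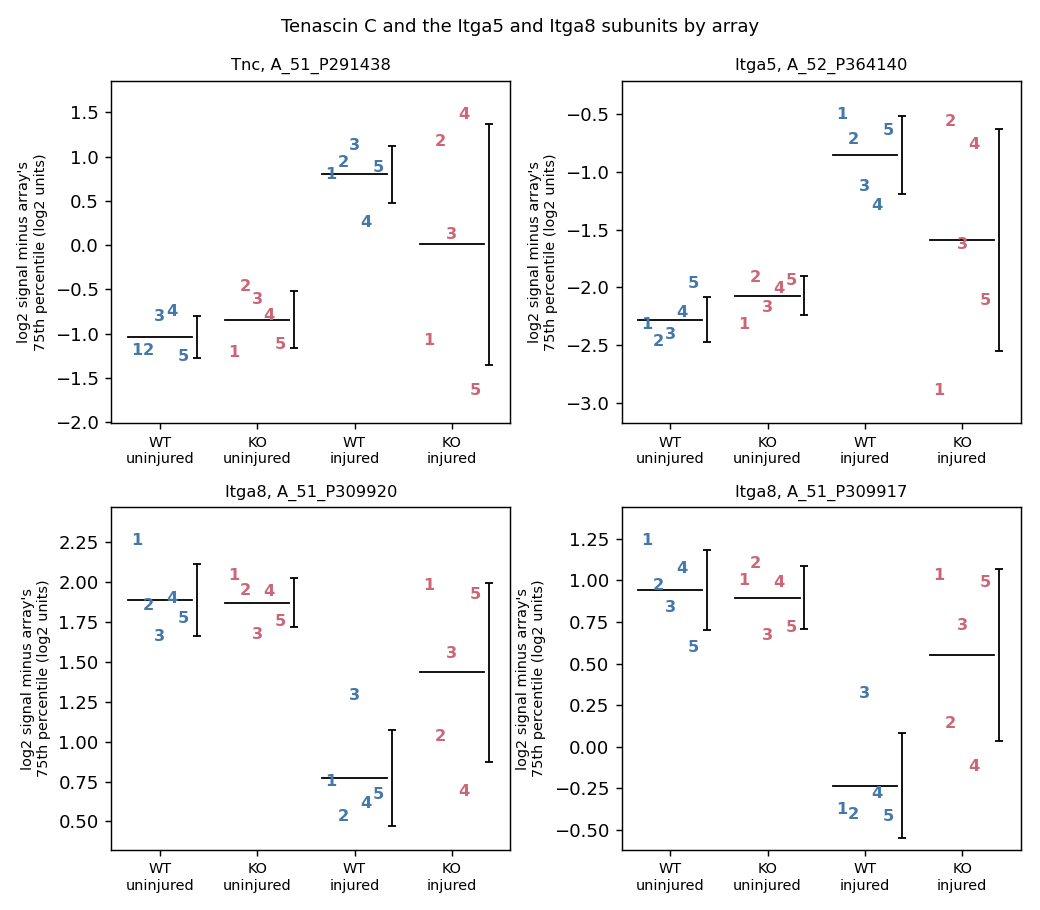
Level of Tnc, Itga5 and Itga8 probes on each array (vertical axis, log2 signal minus the array's 75th percentile) in the 4 groups (horizontal axis), with digits giving the replicate number, lines the group mean and bars the SD of 5 samples. Injured wild-type samples stand apart from uninjured ones in each panel, and injured Myd88KO replicates 2 and 4 lie with or beyond them, while 1 and 5 lie with the uninjured samples or farther from the injured wild type.

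Itga9, the alpha subunit of a tenascin C receptor, differed between the genotypes, with and without injury, at 1 of its 2 probes. The probe carrying its name (A_51_P382970, chromosome 9, positions 118578986 to 118579045 in the files) read -1.39, -1.76, -1.67, -1.54 and -1.43 in uninjured wild type and 1.91, 1.44, 1.66, 1.76 and 1.76 in uninjured Myd88KO. The gap of 3.26 (SE 0.13), 9.58-fold, exceeded the SD within either group (0.16 and 0.17). After injury wild-type samples read -1.26, -1.65, -1.37, -1.45 and -1.24. Injured Myd88KO samples read 1.17, 1.65, 1.46, 1.62 and 1.48, a genotype difference of 2.87 (SE 0.13), 7.29-fold. Every Myd88KO sample lay above every wild-type sample, with or without injury. Within slides the uninjured difference ran from 3.19 to 3.32 and the injured one from 2.42 to 3.30, and within the 2 scan days the uninjured difference was 3.27 and 3.24. Injury itself moved this probe by 0.16 (SE 0.13) in wild type and -0.23 (SE 0.13) in Myd88KO.

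The second Itga9 probe (A_52_P542645) is named 6720458D17Rik on the array, a name that RefSeq lists as a synonym of Itga9, and lies 1.86 kb farther along the same strand, at positions 118580851 to 118580910. It read 0.56 to 1.23 in uninjured wild type, 0.96 to 1.34 in uninjured Myd88KO, 0.91 to 1.33 in injured wild type and 0.35 to 1.34 in injured Myd88KO. All 4 groups overlapped. The genotype difference was 0.14 (SE 0.18) without injury and -0.19 (SE 0.18) after it, with a 95% interval for the uninjured difference of -0.23 to 0.51. Both probes were well above background on all 20 arrays, so the disagreement is between 2 measured signals assigned to 1 gene. Which transcripts each probe reads was not tested.

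**Figure D2:**
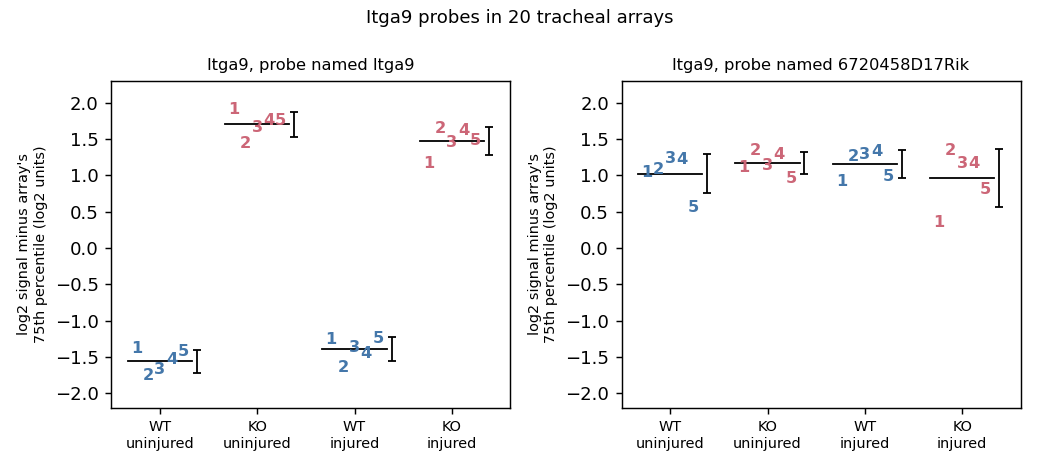
Level of both Itga9 probes on each array (vertical axis, log2 signal minus the array's 75th percentile, on the same range in both panels) in the 4 groups, with digits giving the replicate number, lines the group mean and bars the SD of 5 samples. The probe named Itga9 lies between -1.76 and -1.24 in all wild-type and between 1.17 and 1.91 in all Myd88KO samples, whereas the probe named 6720458D17Rik overlaps in all groups.

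Itga9 and Myd88 lie near each other on chromosome 9, with 437 kb between their probes in the files' positions. Within 2 Mb of the Itga9 probe, the other 47 tested probes differed between uninjured genotypes by -0.75 to 0.54, and none of them was called, against 0.384% of all probes tested in this comparison. After injury the same 47 probes differed by -0.85 to 1.01, and Myd88 itself was the only one called. The 5 genes whose pattern over the 20 arrays was most like that of the first Itga9 probe were Cuedc1 (Pearson r 0.979), Hal (0.972), Mela (0.971), Fbxw27 (0.961) and Arsk (0.954). All 5 separated the genotypes in the same way: the Cuedc1 probe, for example, ran from -2.61 to -1.53 in wild type and from 0.42 to 1.48 in Myd88KO. Fbxw27 also lies on chromosome 9, and the others lie on chromosomes 11, 10, 8 and 13. These correlations describe arrays that share 2 genotypes and carry no test.

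**Figure D3:**
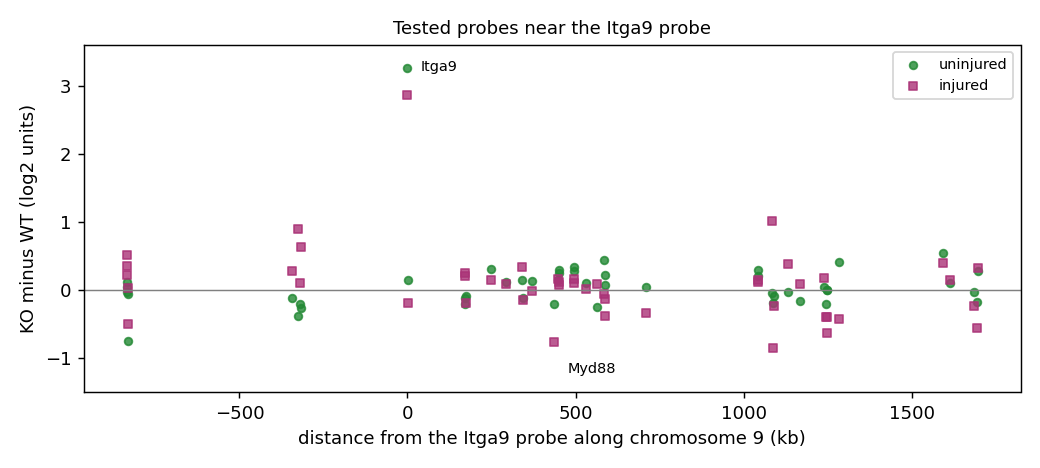
Difference between Myd88KO and wild type (vertical axis, log2 units) for the 48 tested probes within 2 Mb of the Itga9 probe, by distance in kb (horizontal axis), in uninjured (circles) and injured (squares) tracheas. The Itga9 probe stands at 3.26 and 2.87, and the others lie between -0.85 and 1.01.

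Itga8, an alpha subunit typical of smooth muscle and other contractile mesenchyme, was lower after wild-type injury at both of its bright probes. The first (A_51_P309920, chromosome 2, positions 12045993 to 12046052 in the files) read 2.26, 1.85, 1.66, 1.90 and 1.77 in uninjured wild type and 0.75, 0.53, 1.29, 0.61 and 0.67 after injury, a difference of -1.12 (SE 0.22), 2.17-fold. The second (A_51_P309917), 172 bases away by start position, read 0.60 to 1.24 before and -0.42 to 0.32 after, a difference of -1.18 (SE 0.21). Neither probe overlapped between the wild-type groups. In uninjured Myd88KO the first probe read 1.67 to 2.04, as in uninjured wild type. Injured Myd88KO replicates 1 to 5 read 1.98, 1.03, 1.55, 0.69 and 1.92, so replicates 2 and 4 were low and replicates 1 and 5 were at the uninjured level. The Myd88KO difference was -0.44 (SE 0.22), and -0.56 without replicate 5. The remaining Itga8 probe was well above background on 3 arrays, all uninjured Myd88KO, and was not tested. The 6 smooth muscle markers included none that was called in wild-type injury, and their summed level was 250 to 286 in uninjured and 199 to 355 in injured wild type.

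Itgav and Itgb6, which form an epithelial receptor for tenascin C and fibronectin, differed little. The tested Itgav probe read 0.03 to 0.59 in uninjured and 0.08 to 0.72 in injured wild type, with a difference of 0.20 (SE 0.18) there and 0.23 (SE 0.18) in Myd88KO. The other 3 Itgav probes were not well above background on 10 arrays. Of 2 further probes, listed as D430040G12Rik, 1 could be tested and differed by 0.30 (SE 0.26) after wild-type injury. Itgb6 was lower after injury at both tested probes in both genotypes, by 0.55 and 0.44 in wild type and 0.57 and 0.60 in Myd88KO (SE 0.23 to 0.26), and none of these was called. The genotypes differed by 0.01 and 0.00 at these probes before injury.

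Itga5, which with Itgb1 forms the classical fibronectin receptor, was higher after wild-type injury. Its 1 probe (A_52_P364140, chromosome 15, positions 103333409 to 103333468 in the files) read -2.32, -2.47, -2.41, -2.22 and -1.97 in uninjured and -0.50, -0.72, -1.13, -1.29 and -0.64 in injured wild type. The groups did not overlap, and the difference was 1.42 (SE 0.32), 2.68-fold. It was called in the main fit and under 24 of 31 alternative settings. Uninjured Myd88KO read -2.32 to -1.91, and injured Myd88KO replicates 1 to 5 read -2.89, -0.56, -1.63, -0.76 and -2.11. Replicates 2 and 4 were again at the injured wild-type level, and replicate 1 was the lowest of all 20 samples. The Myd88KO difference was 0.48 (SE 0.32), and 0.61 without replicate 5. Within slides the wild-type difference ran from 0.92 to 1.82.

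The spread of injured Myd88KO samples in Tnc, Itga5 and Itga8 had a counterpart in the 5 proliferation markers, whose summed level on the linear scale was 11.9, 29.7, 14.3, 31.2 and 3.04 in replicates 1 to 5. Replicates 2 and 4 were the highest and replicate 5 the lowest. The same sum was 21.2 to 39.1 in injured wild type, 3.43 to 12.2 in uninjured wild type and 2.05 to 5.24 in uninjured Myd88KO. The 6 fibroblast markers summed to 407, 637, 428, 543 and 340 in the same replicates, again highest in 2 and 4 and lowest in 5, and to 560 to 1020 in injured against 413 to 680 in uninjured wild type. The 5 adipocyte markers ran the other way, with 415, 142, 140, 170 and 321. The leukocyte, smooth muscle and skeletal muscle sums were highest in replicate 5 (452, 339 and 1430), with smooth muscle at 334 in replicate 2. In replicates 1 to 5 the epithelium sums were 389, 474, 300, 342 and 262. The endothelium sums were 8.66, 12, 8.04, 10.5 and 10.3, and the cartilage sums 24.5, 44.6, 38.6, 23.4 and 34.6. After wild-type injury 3 of 5 proliferation markers rose, and none of the fibroblast or adipocyte markers was called. The part of these cells in the 3 results was not tested. The spread also followed the scan day, but only in part. Slides 1 and 5 were scanned on 1 day and slides 2, 3 and 4 on the other. The Myd88KO injury difference of Tnc was 1.55 over slides 2, 3 and 4 and -0.20 over slides 1 and 5. For Itga5 it was 1.04 and -0.37, and for the first Itga8 probe -0.77 and 0.05. Slide 3 differed less than slides 2 and 4, by 0.73 for Tnc, 0.54 for Itga5 and -0.12 for that Itga8 probe. In wild type the Tnc difference was 1.69 and 2.07 on the same 2 days. A fit with scan day as a block was run, but it removes only a shift shared by all groups. Whether the Myd88KO injury response differed between scan days was not tested.

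Itga3, a laminin-binding subunit of epithelial cells, had 3 tested probes that read higher after wild-type injury by 0.87 (SE 0.31), 0.81 (SE 0.39) and 0.48 (SE 0.21), with overlap between the groups at each and no call. In Myd88KO the same probes differed by 0.25, 0.37 and -0.03. Itga1, a collagen-binding subunit, had 4 tested probes, with injury differences between -0.48 and 0.13 in wild type and between -0.42 and 0.02 in Myd88KO. Both Itga2 probes were below that limit on all 20 arrays, so this other collagen-binding subunit was not measured. The most replicated Itgb1 probe, with 10 spots per array, read 1.34 to 2.26 in uninjured and 1.85 to 2.43 in injured wild type, a difference of 0.12 (SE 0.23). The second differed by 0.40 (SE 0.34). The third, which the array describes as the beta1D form, known from striated muscle, differed by -0.74 (SE 0.34) in wild type and 0.17 (SE 0.34) in Myd88KO. The 6 skeletal muscle markers had a summed level of 563 to 1330 in uninjured and 508 to 1200 in injured wild type, and none of them was called.

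**Figure D4:**
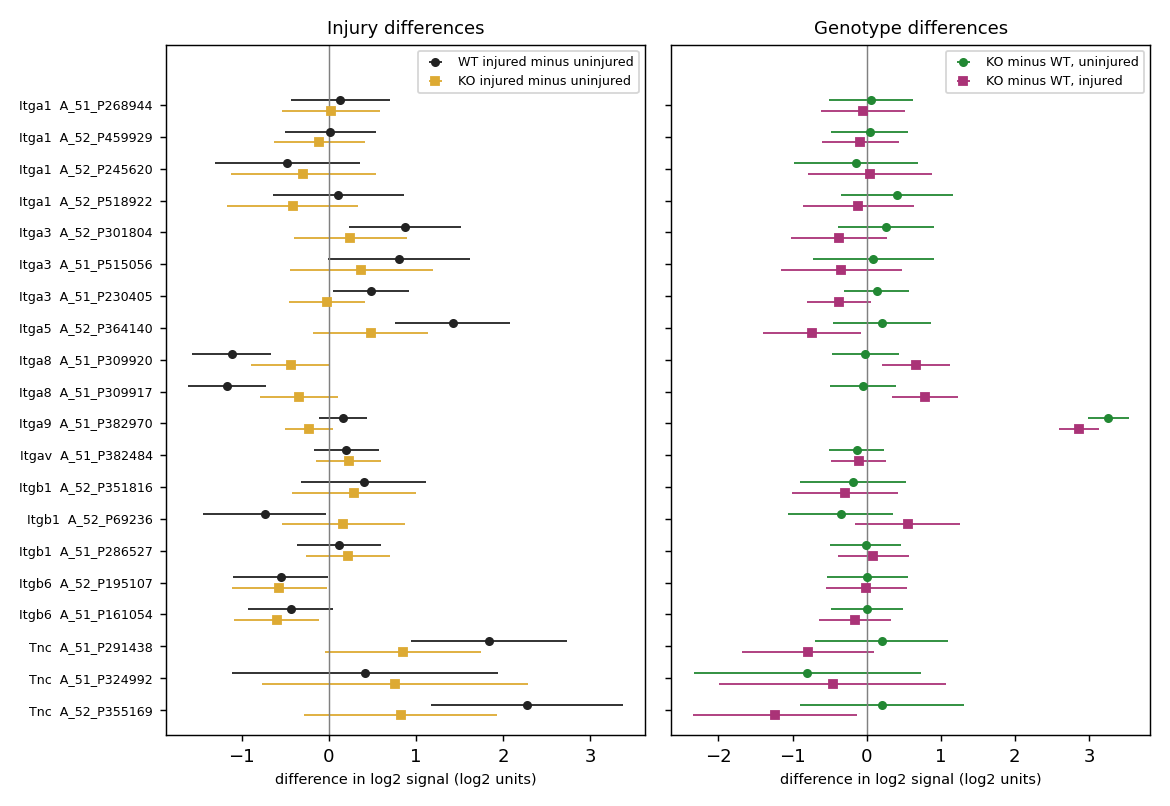
Differences in log2 signal (horizontal axes) of the 20 tested probes (vertical axis), for injury in each genotype on the left and for Myd88KO minus wild type on the right, with 95% intervals from limma. Tnc and Itga5 lie to the right and Itga8 to the left of 0 after wild-type injury, and the Itga9 probe is the 1 far from 0 between genotypes, at 3.26 and 2.87.

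Counted over the set at an adjusted p under 0.01, 5 of 20 probes were called after wild-type injury (Tnc at 2 probes, Itga5 at 1 and Itga8 at 2), where 5.26% of all 26063 probes tested were called, 3.24% higher and 2.03% lower. After Myd88KO injury 0 of 20 were called by limma, against 0.376% of all probes (0.242% lower), and 2 of 20 had an unadjusted p under 0.05, beside 19.5% of all probes. The methods' t-test after Benjamini-Hochberg adjustment called 0 of all 26063 probes there, members included. Between uninjured and between injured genotypes 1 of 20 was called, the Itga9 probe, where 0.384% and 0.38% of all probes were. The difference between the 2 injury responses was called by limma for no probe of the set and for none of the array (0%), with 4 of 20 members and 10.4% of all probes (2703 of 26063) at an unadjusted p under 0.05. The Myd88KO response minus the wild-type response was 0.68 (SE 0.31) and 0.83 (SE 0.30) at the Itga8 probes, -0.94 (SE 0.45) at Itga5 and -0.99 (SE 0.61) at the brightest Tnc probe. Within slides, both Itga8 probes were higher in injured Myd88KO than in injured wild type on 5 of 5 slides, by 0.08 to 1.25 and 0.15 to 1.41, whereas Itga5 and Tnc were higher on 2 of 5. The members' median difference after wild-type injury was 0.15, beside 0.00 over all probes. Nothing is read from these counts, response differences or slide tallies, since the same arrays chose the genes. The wild-type count came down to 2 when any of uninjured wild-type replicates 1 to 4 or injured wild-type replicates 1, 2 or 5 was left out, and to 3 without uninjured wild-type replicate 5, injured wild-type replicate 3, injured Myd88KO replicate 3 or any of uninjured Myd88KO replicates 1 to 4. Both Itga8 probes were called in each of these. The share called over all probes was also lower in each, from 2.55% without uninjured wild-type replicate 2 to 4.7% without injured Myd88KO replicate 3, against 5.26%.

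Related genes that are not members were read from 6 lists of 60 genes, of which 58 had a tested probe, 100 probes in all. These lists were also drawn up with earlier results of these data known. Their counts and adjusted p-values are therefore a description and no independent test. After wild-type injury 7 of these 100 probes (7%), of 7 genes, rose and none fell, beside 5.26% of all probes tested, and the median difference was 0.38 beside 0.00. In the other 4 comparisons limma called 0 of 100, and the methods' t-test after adjustment called 0 in the 3 of these it was run on. At an unadjusted p under 0.05 there were 5 of 100 between uninjured genotypes, beside 5.59% of all probes, and 15 after Myd88KO injury, beside 19.5%. There were 20 between injured genotypes, beside 12.5%, and 15 for the difference between responses, beside 10.4%.

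The integrin subunits of leukocytes gave 4 of the 7 genes. Itgb2, the common beta subunit of leukocyte integrins, rose by 2.66 (SE 0.53, adjusted p = 0.00332, and 0.0103 without injured wild-type replicate 2, the highest of 31 alternatives), from -1.58 ± 0.12 to 1.08 ± 0.64 (SD, n = 5 arrays, limma). Its partner Itgam, found on neutrophils and macrophages, rose by 2.66 (SE 0.58, adjusted p = 0.00555), and with the slide as a block its adjusted p was 0.0109, in a range of 0.00111 to 0.0182 over all alternatives. Itgax, found on dendritic cells and macrophages, rose by 1.58 (SE 0.35, adjusted p = 0.00617, and 0.0109 with the block, range 0.00106 to 0.0209), while a second Itgax probe differed by -0.71. Itgb7, of lymphocyte homing receptors, rose by 1.06 (SE 0.19, adjusted p = 0.00143); it was named after its value was seen. Injured Myd88KO replicates 1 to 5 read -0.67, 1.77, -0.41, 2.10 and -1.85 for Itgb2, with replicates 2 and 4 above all injured wild-type samples. Of 7 general leukocyte markers, 2 rose in wild-type injury, and their median difference was 1.55, against 0.99 after Myd88KO injury. The linear sum of the list, in which Lyz2 weighs most, was 301 to 534 in uninjured and 341 to 642 in injured wild type. In injured Myd88KO replicates 1 to 5 the sum was 344, 372, 276, 322 and 452, highest in replicate 5, where Itgb2 was lowest. The part of leukocyte number was not tested.

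Among 15 ligands, 2 rose after wild-type injury. Spp1, which encodes osteopontin, a ligand of Itga9 and of integrins that read the RGD motif, rose by 2.76 (SE 0.65, limma adjusted p = 0.00861, and 0.0142 with the slide as a block, range 0.00121 to 0.0392 over all alternatives), from 2.82 ± 0.61 to 5.58 ± 1.42 (SD, n = 5 arrays). Tgfb1, whose latent form is held by Itgav integrins, rose by 1.44 (SE 0.31, adjusted p = 0.00545, range 0.00136 to 0.0191). It was called under 25 of 31 alternatives and lost the call without uninjured or injured wild-type replicates 1 or 2, uninjured replicate 4 or injured replicate 5. Spp1 was called under 14 of 31. Thbs1, encoding the matrix protein thrombospondin 1, was named after its values were seen: it differed by 1.78 (SE 0.44) at 1 of its 3 probes and was not called (adjusted p = 0.0111), but was called with the slide as a block (0.00478) and under 9 of 31 alternatives in all (0.00179 to 0.0328). Fibronectin, the ligand of Itga5, was chosen for mention after its values were seen: its 3 probes differed by 1.29, 1.43 and 1.60 with no overlap between wild-type groups, and none was called. After Myd88KO injury the Spp1 difference was 1.76 and was not called.

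The adhesion complex inside the cell gave 1 call among 16 genes: Zyx, encoding the focal adhesion protein zyxin, rose by 0.78 (SE 0.15, limma adjusted p = 0.00216), from 4.31 ± 0.25 to 5.09 ± 0.07 (SD, n = 5 arrays). None of the 9 laminin chains, and none of the 10 other integrin subunits, was called in any comparison, and their median differences after wild-type injury were 0.46 and 0.34. The other tenascins were not called either. Tnxb differed by 0.36 and 0.41 at its 2 probes after wild-type injury, and Tnn by 0.68, while no array measured Tnr above background. In Myd88KO the same Tnxb probes differed by -0.03 and -0.41 and Tnn by 0.02.

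**Figure D5:**
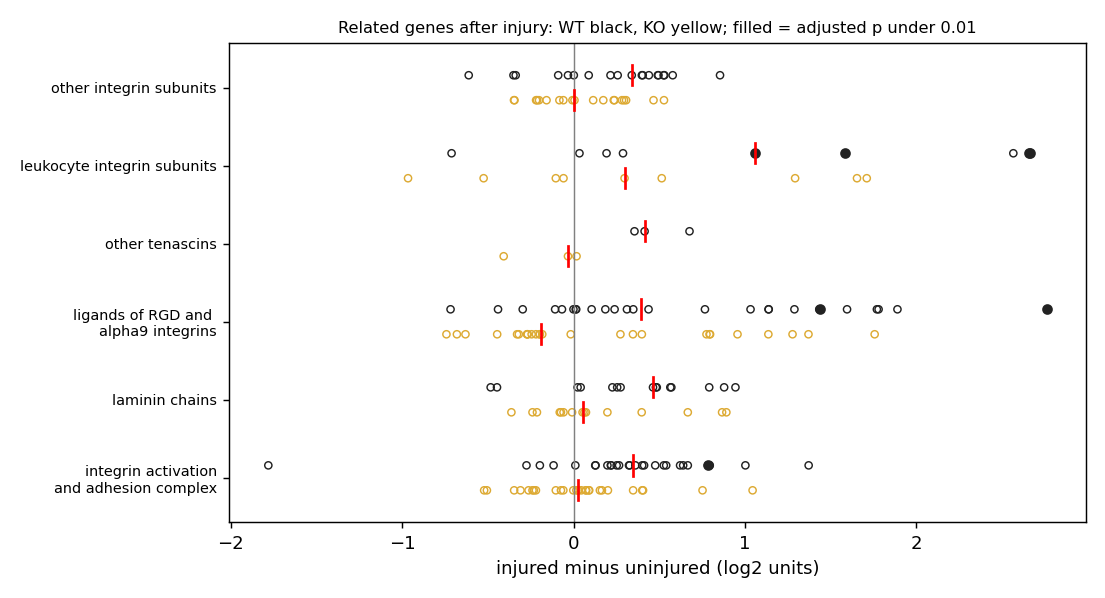
Injured minus uninjured difference (horizontal axis, log2 units) of each tested probe in the 6 lists of related genes (vertical axis), in wild type (black) and Myd88KO (yellow), filled where the adjusted p was under 0.01, with red bars at list medians. Filled points are present in wild type alone, among leukocyte integrin subunits, ligands and the adhesion complex.

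The 5 genes whose pattern over the 20 arrays was most like that of the brightest Tnc probe were Col18a1 (Pearson r 0.976), Il2rg (0.966), Fscn1 (0.965), Mmp14 (0.964) and Pdlim7 (0.963). Col18a1 encodes a basement membrane collagen, Mmp14 a membrane-bound matrix protease and Fscn1 an actin-bundling protein. The Col18a1 probe ran from 0.21 to 1.02 in uninjured and from 1.73 to 2.56 in injured wild type, and from 0.22 to 2.75 in injured Myd88KO. The arrays share 2 treatments and the correlations carry no test.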

How the data were processed

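The authors labelled whole-trachea RNA with Cy3, hybridised each sample to 1 Agilent whole mouse genome array and deposited the spot intensity of each array, with background subtracted and spatial trend removed by Feature Extraction 9.5.1.1 and no scaling between arrays. Spots not above background hold surrogate values set by the software. Per the file headers, outlier and background flags come from the same software. The genome build of the positions is not given in the sources used here.

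The members, the related gene lists and the markers were chosen with earlier results of these data known. The authors' deposited intensity was taken to log2, outlier spots were dropped (5 among member spots, all of 1 Itgb1 probe), spots of a probe were averaged and the array's 75th percentile was subtracted. Probes well above background on at least 10 of 20 arrays were tested, after the methods' exclusion of transcripts present in fewer than 50% of samples. Differences were fitted in R 4.3.3 with limma 3.58.1 (lmFit, eBayes) on all 20 arrays, with Benjamini-Hochberg adjustment over 26063 probes within each of 5 comparisons, and called at an adjusted p under 0.01, as the methods set it. The steps were tested on simulated data. Marker sums add linear values of the brightest probe per gene. Genes were named from the files, or through RefSeq where an accession (22951 probes), symbol (6659) or older symbol (3109) matched. From each related list and comparison, up to 3 called genes with the largest rise and fall were named, besides all other tenascins. Replicate numbers matched slides: each of 5 slides held the same-numbered array of every group. Deviations from the group mean correlated by -0.262 to 0.476 between same-numbered arrays (median 0.242), above 0.1 in 23 of 30 pairs. Between differently numbered arrays the median was -0.08, with 35 of 120 pairs above 0.1. The main fit has no term for slide, which is among the alternatives. The paper describes the samples of a group as biological replicates, while the labels do not say that they were separate animals. The p-values measure the spread between these samples. Their number, 5 a group, limits the precision. Alternatives were other normalizations, background corrections, filters, blocks, array weights, the 2 groups alone, the methods' t-test (their one-way parametric test, run on the 2 groups compared) and leaving out each array. No columns of other samples were present, and authors' comparison columns were not among the files.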

Additional observations from a re-analysis of the deposited data

Results flagged for a closer look

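In 5 of 128 groups of 5 arrays examined, 1 array lay farther from the rest than the Dixon limit allows, where about 1 group in 20 does so by chance. They were the second Itga8 probe in injured wild-type replicate 3 (0.32, next -0.28), the Itga9 probe named 6720458D17Rik in uninjured wild-type replicate 5 (0.56, next 1.04), the beta1D probe of Itgb1 in injured wild-type replicate 3 (-3.62, next -2.78), the dim Tnc probe in uninjured Myd88KO replicate 5 (-5.66, next -4.69) and Tnn in uninjured Myd88KO replicate 1 (-1.05, next -2.29). At 1 Tnxb probe every injured wild-type sample lay above the uninjured wild-type mean and every injured Myd88KO sample below its own, a difference between the responses of -0.82 that did not pass the limma test of that difference (adjusted p = 0.394).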

How the results depend on the processing

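The genotype difference of the first Itga9 probe was 2.92 without and 2.59 with injury under normexp background correction. Under the same correction the wild-type injury difference of the dim Tnc probe was 0.97 and was not called. Array weights gave 15 called related probes after wild-type injury and 9 after Myd88KO injury in place of 7 and 0, and 1 called member probe (Tnc) after Myd88KO injury in place of 0, while the share called over all probes went to 9.97% and 7.31%. The 2 groups alone gave 11 related probes after wild-type injury, where 6.06% of all probes were called. No filter on dim probes left 3 of the 5 member probes called, where 2.69% of 41174 probes were. That setting moved the median of all probes by -0.104. With the replicate block (slide) the count was 6 for related and 4 for member probes after wild-type injury, where 5.94% of all probes were called. No other related or member count changed. Over all probes, 0.549% were called after Myd88KO injury and 1 probe for the difference between responses. Of the 6 related probes called with the block, 4 were among the 7 called without it. With scan day as a block, 10 related probes and the same 5 member probes were called after wild-type injury, where 8.08% of all probes were. After Myd88KO injury that block called no related or member probe, and 1.39% of all probes in place of 0.376%. For the difference between responses it called 2 of all probes.

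Leaving out 1 array at a time gave 2 to 10 related and 2 to 5 member probes after wild-type injury, beside 2.55% to 7.07% of all probes. After Myd88KO injury it gave 0 to 2 related probes, beside 0.023% to 4.12% of all probes. The related count was 2 without injured wild-type replicate 2, 3 without injured wild-type replicates 1 or 5 or uninjured wild-type replicates 1, 2 or 4, and 4 without uninjured wild-type replicate 5. The 2 related probes after Myd88KO injury (Itgam and Vtn) came without injured Myd88KO replicate 5, where 4.12% of all probes were called. Over the same left-out arrays the Itga9 differences were 3.21 to 3.33 and 2.80 to 2.94, Itga5 1.33 to 1.53, Itga8 -1.25 to -1.02 and -1.31 to -1.10, and Tnc 1.76 to 1.98 and 2.07 to 2.52. Among the alternatives run, no called value changed sign. After Benjamini-Hochberg adjustment the methods' t-test called 8 related and 5 member probes after wild-type injury, and 4.02% of all probes. It and the fit on 2 groups give no value for the difference between injury responses. The cause of these changes was not tested. Dim probes, such as the second Tnc probe, limit what the signal over background can show.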
